A study of Mus musculus with 3 samples.

Results

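The interferon response genes described here are 47 genes chosen by name, among them the type I interferon receptor subunits, the transcription factors of the response and its antiviral effectors, and they are 47 of the 36172 genes in the deposited expression table. The choice was by gene name and not by a threshold on measured values. Values are given for 3 RNA sequencing libraries of bone marrow LSK cells (lineage-negative, Sca1-positive, c-Kit-positive), a marrow fraction of stem and multipotent progenitor cells. The libraries came from *Calr* del10/WT knock-in mice, *Calr* ins2/WT knock-in mice and *Calr* WT/WT mice, called del10, ins2 and WT below. All were C57BL/6, and the knock-in mice were heterozygous for a frameshift in the last exon of *Calr* (calreticulin, which helps glycoproteins fold) made with CRISPR-Cas9. Each genotype had 1 library, made from 5 ng of total RNA of an aliquot of cells taken from 4 male mice aged 3 months. Ribosomal RNA was depleted, a directional kit was used, and reads were 75 bp, single end. With 1 library per genotype no difference below has a replicate check, so no p-value is given and every ratio compares libraries.

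Type I interferons bind a receptor of IFNAR1 and IFNAR2, whose kinases JAK1 and TYK2 phosphorylate STAT2. STAT2 acts with IRF9 in the complex ISGF3, which binds the interferon-stimulated response element (ISRE), while interferon gamma acts mainly through the gamma-activated site (GAS). The induced genes encode sensors and inhibitors of viral RNA, ubiquitin-like modifiers, membrane proteins and GTPases, and in the bone marrow interferons are known to bring quiescent hematopoietic stem cells into cycle.

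Promoter sequence from RefSeq (GRCm38.p6), 250 bases before to 50 after a transcription start, was available for 37 of the 47 genes. The pieces printed here were taken only from genes that hold a match and whose values stand out in the results below. *Ifitm1*, *Lgals3bp*, *Xaf1*, *Trim25*, *Cmpk2*, *Oasl2* and *Ifi44* also stand out there, and their windows held neither an ISRE core nor a GAS core. The ISRE core was searched as GAAANNGAAA on both strands and the GAS core as TTCNNNGAA, which reads the same on both strands. Capitals mark a match to the core, and every piece is written 5′ to 3′ on the strand of its gene. A match is a description of the letters and not a shown binding site.
Stat2, ISRE core, chr10:128270266-128270295, plus strand: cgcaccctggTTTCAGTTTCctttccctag
Ifih1, ISRE core, chr2:62646206-62646233, minus strand: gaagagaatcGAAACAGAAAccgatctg
Isg15, ISRE core, chr4:156200871-156200900, minus strand: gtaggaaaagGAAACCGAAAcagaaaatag
Oas1a, ISRE core, chr5:120907520-120907549, minus strand: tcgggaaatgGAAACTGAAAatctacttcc
Ifitm2, ISRE core, chr7:140955988-140956017, minus strand: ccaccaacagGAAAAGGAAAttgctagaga
Ifitm3, ISRE core, chr7:141010706-141010735, minus strand: aaacttctgaGAAACCGAAActgccgcaga
Rsad2, ISRE core, chr12:26456553-26456582, minus strand: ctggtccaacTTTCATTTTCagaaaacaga
Irf1, GAS core, chr11:53769914-53769942, plus strand: acagcctgatTTCCCCGAAatgatgaggc
Samhd1, GAS core, chr2:157135313-157135341, minus strand: acaccaccctTTCGGAGAAacacaagggc
Isg20, GAS core, chr7:78913341-78913369, plus strand: ctggggagggTTCTTGGAAtttttccttt

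An ISRE core was found for 17 of the 37 genes with a window (45.9%), against 1079 of all 27025 genes with one (3.99%). A GAS core was found for 13 of the 37 (35.1%), against 2582 of the 27025 (9.55%), and 5 genes (*Bst2*, *Eif2ak2*, *Ifitm3*, *Igtp* and *Oas1a*) held both. *Isg15* held 3 overlapping ISRE matches, the first 78 bases before the start, and *Ifit1* and *Ifit3* held 2 matches each. In *Ifitm3*, *Ddx58*, *Eif2ak2* and *Ifih1* the matches lay within the first 50 bases after the start. Matches were found in genes on both sides of WT. Of the members with a window and enough reads to compare, an ISRE core was found for 2 of 5 that were over 2-fold higher in del10 than in WT, for 7 of 18 within 2-fold and for 1 of 2 that were over 2-fold lower.

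**Figure D1:**
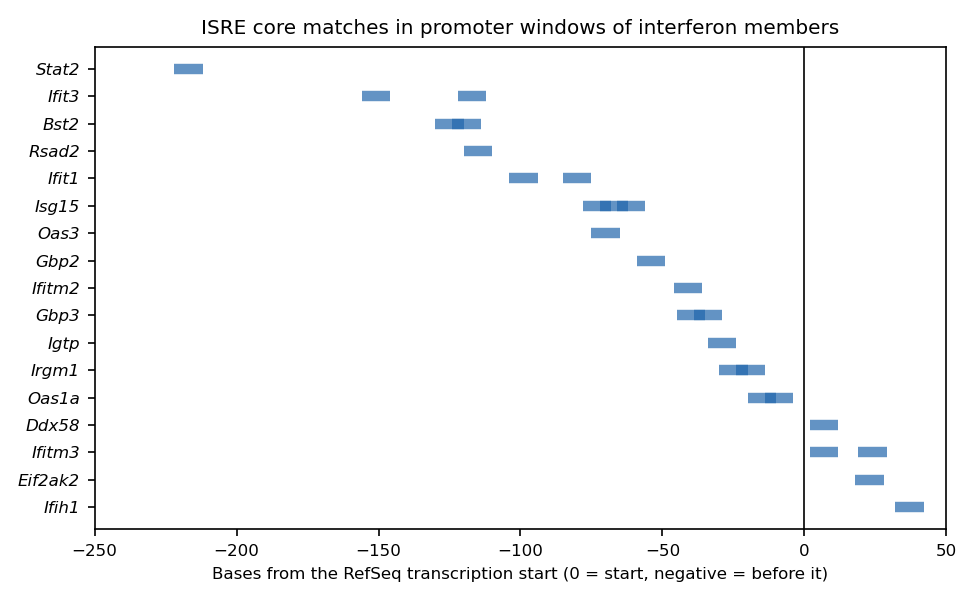
Position of each ISRE core match (bars, 10 bases long) in the promoter windows of the 17 members that hold one, in bases from the RefSeq transcription start. Matches run from 222 bases before the start in Stat2 to 32 bases after it in Ifih1, and darker stretches mark overlapping matches.

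The libraries had 11111698 reads assigned to genes in del10, 10967622 in ins2 and 9823095 in WT. They differed in how far the reads can be trusted as separate RNA fragments. The commonest low read count of a gene, taken here as the reads that 1 starting fragment gave, was 16 in del10, 21 in ins2 and 61 in WT, so that the WT values rest on the fewest fragments. Exact binomial 95% intervals of a ratio are therefore given on reads and on these estimated fragments, and both cover counting error only. Of the genes at 100 to 200 normalized counts in both other libraries, 3 of 440 were listed at 0 in del10, 4 of 435 in ins2 and 134 of 706 (19.0%) in WT. The label of the WT library was not borne out by all LSK markers. *Kit*, which encodes the c-Kit receptor of the sort, had 4177 normalized counts in del10, 3082 in ins2 and 286 in WT, and the progenitor marker *Cd34* had 1664, 727 and a listed 0 in the same libraries. *Ly6a*, which encodes Sca-1 and is itself interferon-inducible, had 51.9 in del10, 120 in ins2 and 145 in WT. The 10 B-lineage markers summed to 11319 normalized counts in del10, 11288 in ins2 and 40494 in WT, and the 7 basophil and mast cell markers to 31629, 22923 and 1997. In bulk RNA, fewer cells of a type and less RNA per cell cannot be told apart. Both comparisons with WT share this library, so the del10 against ins2 comparison, which does not use it, is given beside them.

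All 47 genes had reads in at least 1 library, and 27 of them were in the main set of 7073 genes, those whose mean normalized count was 215 or more. *Oas3*, with a mean of 223, lay just inside this limit and *Cmpk2*, with 213, just outside. The 47 genes took 0.212% of the reads in del10, 0.228% in ins2 and 0.209% in WT. Their summed normalized counts were 24003 in del10, 24601 in ins2 and 22607 in WT. The sum in del10 was 1.06 times that in WT (fragment interval 0.943 to 1.20) and the sum in ins2 1.09 times (0.963 to 1.23), so neither sum differed from WT beyond counting error. Taken per kilobase of exon, *Irf1* was the highest member in del10 at 1009 normalized counts, *Ifitm1* in ins2 at 988 and *Samhd1* in WT at 636.

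The genes went in both directions. In the main set, *Ifitm1*, *Ifitm2*, *Ifih1*, *Irf1* and *Lgals3bp* were over 2-fold higher in del10 than in WT, *Xaf1* and *Rsad2* were over 2-fold lower, and 20 were within 2-fold. *Lgals3bp* (log2 ratio 1.01), *Irf1* (1.03) and *Samhd1* (-0.96) lay close to the threshold, and with scaling by total reads without *Rn45s* (the ribosomal RNA precursor) they were at 0.97, 0.99 and -1.002, which made 3 higher and 3 lower. *Lgals3bp* was also within 2-fold with scaling by the median ratio (0.99) and with a pseudocount of 10 (0.99). The 5 higher genes are 18.5% of the 27, against 15.3% of all main-set genes, and the 2 lower are 7.41% against 10.2%. In ins2, *Ifitm1*, *Lgals3bp*, *Ifih1* and *Stat2* were over 2-fold higher than in WT (14.8% against 15.7% of all main-set genes), and *Rsad2* and *Xaf1* were over 2-fold lower (7.41% against 10.7%). All these shares lay near those of all genes. *Ifitm1*, *Ifih1* and *Lgals3bp* were past 2-fold upward in both knock-in libraries, *Xaf1* and *Rsad2* downward in both, and 19 genes were within 2-fold in both. The median log2 ratio of the 27 genes, on normalized count + 1, was 0.18 in del10 and 0.18 in ins2 against WT, where that of all main-set genes was 0.04 in each comparison.

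**Figure D2:**
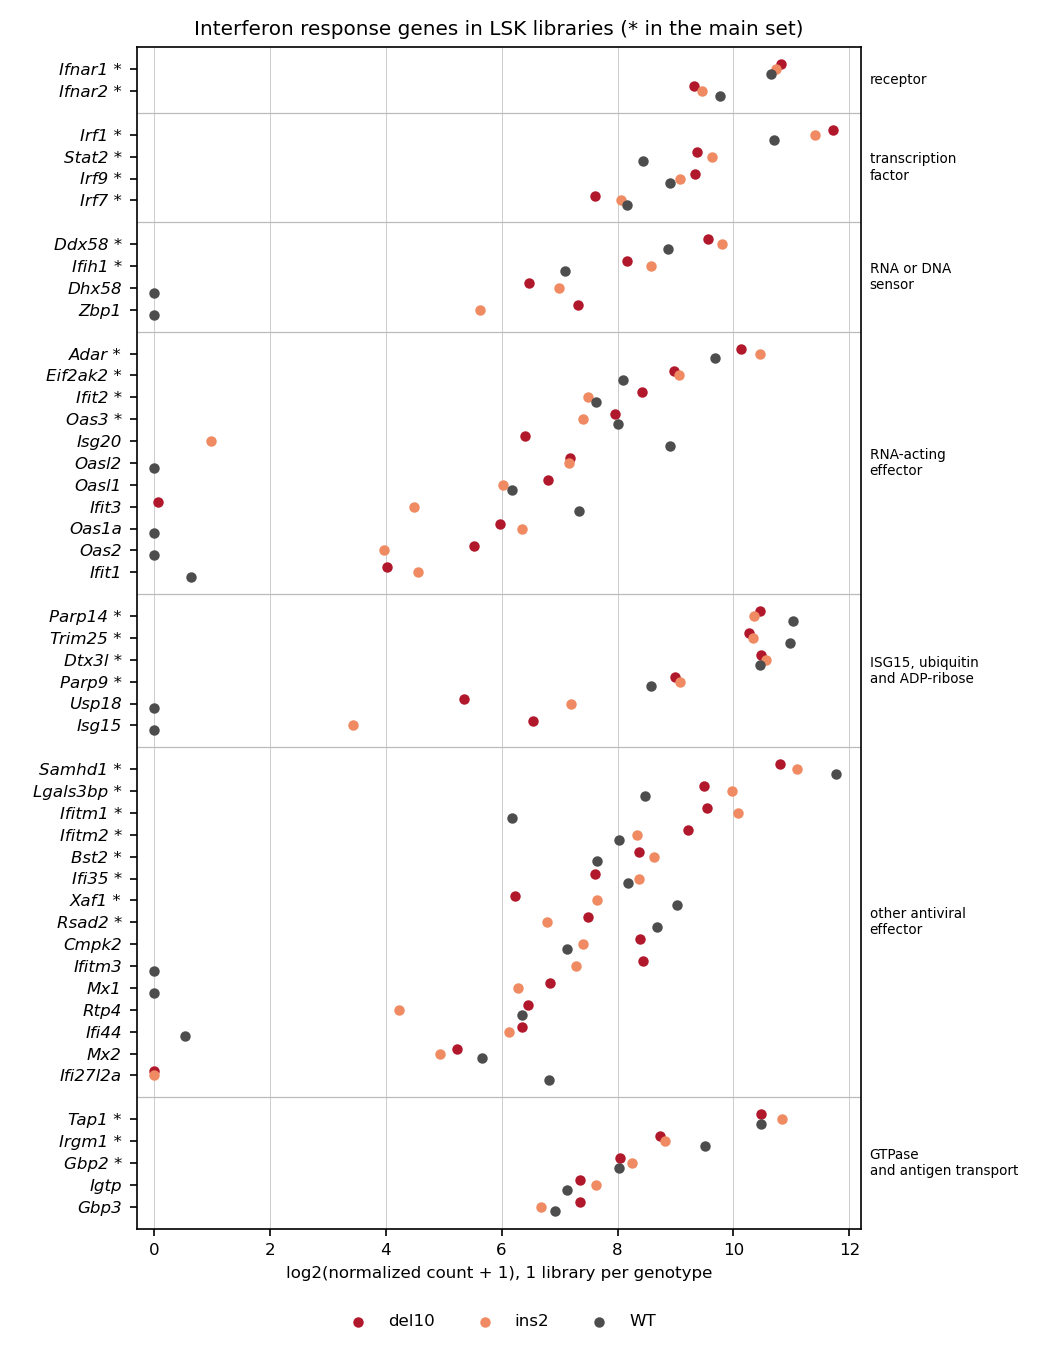
Normalized counts of the 47 interferon response genes on a log2 scale after adding 1, with 1 point per library (del10, ins2, WT) and genes grouped by role; asterisks mark the 27 main-set genes. Points of the same gene mostly lie together at the right of the plot, while 9 genes lie at 0 in WT and apart from it in both knock-in libraries. Of all 14145 genes with reads in any library, 11037 had reads in WT.

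By the stricter reading on estimated fragments, only a few genes differed from WT beyond counting error. In del10 the fragment interval lay above equal levels for 2 of the 27, *Irf1* and *Ifitm1*, where 10.9% of all main-set genes did so, and below for 3, *Samhd1*, *Trim25* and *Xaf1*, where 10.2% did. In ins2 it lay above for 3, *Irf1*, *Ifitm1* and *Lgals3bp*, where 10.5% of all main-set genes did, and below for *Samhd1* alone, where 10.2% did. *Irf1*, *Ifitm1* and *Samhd1* stood apart from WT in both knock-in libraries. Outside the main set, *Ifitm3* lay above WT in del10, and *Isg20* lay below it in del10 and in ins2.

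**Figure D3:**
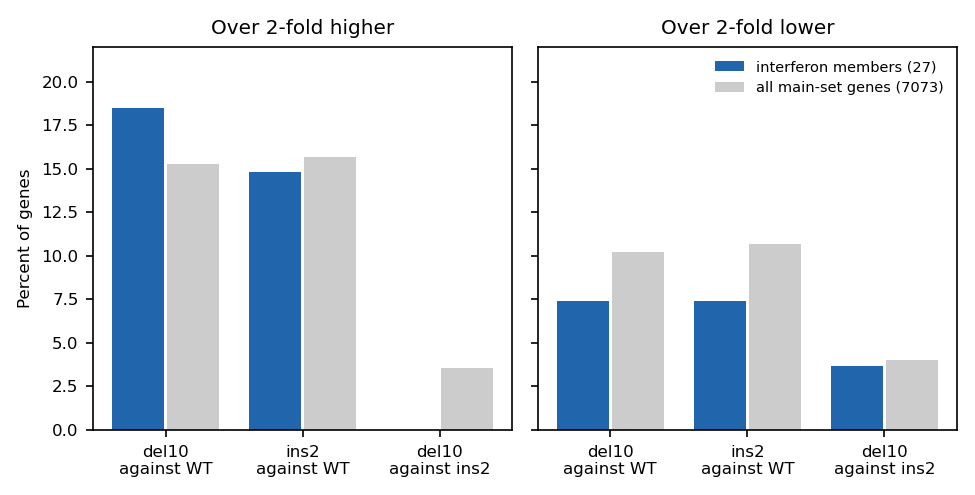
Share of the 27 main-set interferon genes (blue) and of all 7073 main-set genes (grey) that were over 2-fold higher (left) or lower (right) in each comparison, in percent. The blue bars reach 18.5% for del10 against WT and 14.8% for ins2 against WT on the left, beside grey bars of 15.3% and 15.7%.

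The receptor subunits were at similar levels in the 3 libraries. *Ifnar1* (chr16:91485215-91510522, mm10), the chain that carries TYK2, had 1814 normalized counts in del10, 1706 in ins2 and 1597 in WT. Its ratio to WT was 1.14 in del10 (1.06 to 1.22 on reads, 0.718 to 1.83 on fragments) and 1.07 in ins2 (0.996 to 1.15 and 0.670 to 1.76). *Ifnar2*, the chain that carries JAK1, had 637 in del10, 702 in ins2 and 865 in WT. The ratio was 0.736 in del10 (0.661 to 0.818 on reads, 0.381 to 1.49 on fragments) and 0.812 in ins2 (0.733 to 0.900 and 0.415 to 1.66). The knock-in values of *Ifnar2* were below WT on reads, and on fragments no difference was detectable at this depth.

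Among the transcription factors, *Irf1* gave the clearest difference. *Irf1* (chr11:53770014-53778374), a factor induced by interferon gamma and by several other cytokines, had 3367 normalized counts in del10, 2698 in ins2 and 1653 in WT. Both knock-in libraries were above WT, del10 by 2.04-fold (1.92 to 2.17 on reads, 1.33 to 3.18 on fragments) and ins2 by 1.63-fold (1.53 to 1.74 and 1.05 to 2.59). *Irf1* also had the largest number of estimated fragments of any member in del10, 207, with 131 in ins2 and 24.6 in WT. Its promoter piece printed above holds a GAS core 90 bases before the start.

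*Stat2* (chr10:128270576-128292849), the signal transducer of ISGF3, had 657 normalized counts in del10, 794 in ins2 and 348 in WT. The ratio was 1.89 in del10 (1.65 to 2.17 on reads, 0.767 to 6.31 on fragments) and 2.28 in ins2 (2.00 to 2.61 and 0.920 to 7.62), so the fragment intervals included equal levels. *Irf9*, which gives ISGF3 its DNA contact, had 645 in del10, 540 in ins2 and 478 in WT, a ratio of 1.35 in del10 (1.19 to 1.53 on reads, 0.615 to 3.67 on fragments) and 1.13 in ins2 (0.995 to 1.28 and 0.484 to 3.12). *Irf7*, the factor that amplifies type I interferon production, had the opposite order, with 195 in del10, 265 in ins2 and 286 in WT. Its ratio was 0.681 in del10 (0.562 to 0.823 on reads, 0.221 to 3.10 on fragments) and 0.927 in ins2 (0.778 to 1.10 and 0.309 to 4.22). Summed, the 4 factors had 1.76 times the WT count in del10 (fragment interval 1.27 to 2.51) and 1.55 times in ins2 (1.11 to 2.24), and *Irf1* made up most of each sum. No sums of 4 other genes were taken to set beside these.

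Of the 4 sensors of foreign nucleic acid, 2 were in the main set, and *Ifih1* was over 2-fold above WT in both knock-in libraries. *Ifih1* (chr2:62595793-62646255), which encodes MDA5, a sensor of long double-stranded RNA, had 286 normalized counts in del10, 381 in ins2 and 136 in WT. That was 2.09-fold WT in del10 (1.69 to 2.61 on reads, 0.524 to 19.4 on fragments) and 2.80-fold in ins2 (2.28 to 3.45 and 0.664 to 24.6), and the WT value corresponded to 2.03 fragments. *Ddx58*, which encodes RIG-I, a sensor of RNA with a triphosphate end, had 756 in del10, 891 in ins2 and 466 in WT, a ratio of 1.62 in del10 (fragment interval 0.716 to 4.19) and 1.91 in ins2 (0.844 to 4.99). *Dhx58*, which encodes LGP2, a relative of these sensors, had 87.6 in del10 and 126 in ins2 and was listed at 0 in WT. *Zbp1*, a sensor of Z-form nucleic acid linked to necroptosis, had 158 in del10 and 48.2 in ins2 and was also listed at 0 in WT. Taken singly, every sensor had a fragment interval that included equal levels. The 4 sensors summed to 1287 in del10, 1446 in ins2 and 603 in WT, a ratio of 2.14 in del10 (fragment interval 1.07 to 4.84) and 2.40 in ins2 (1.19 to 5.46). These intervals cover counting error of the sums only, and the sums include *Dhx58* and *Zbp1*, both listed at 0 in WT. Of all main-set genes, taken singly, 15.3% were over 2-fold higher than WT in del10 and 15.7% in ins2. That share is of single genes, and no sums of 4 other genes were taken. The sums therefore cannot show whether sensors as a class differed from other genes.

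**Figure D4:**
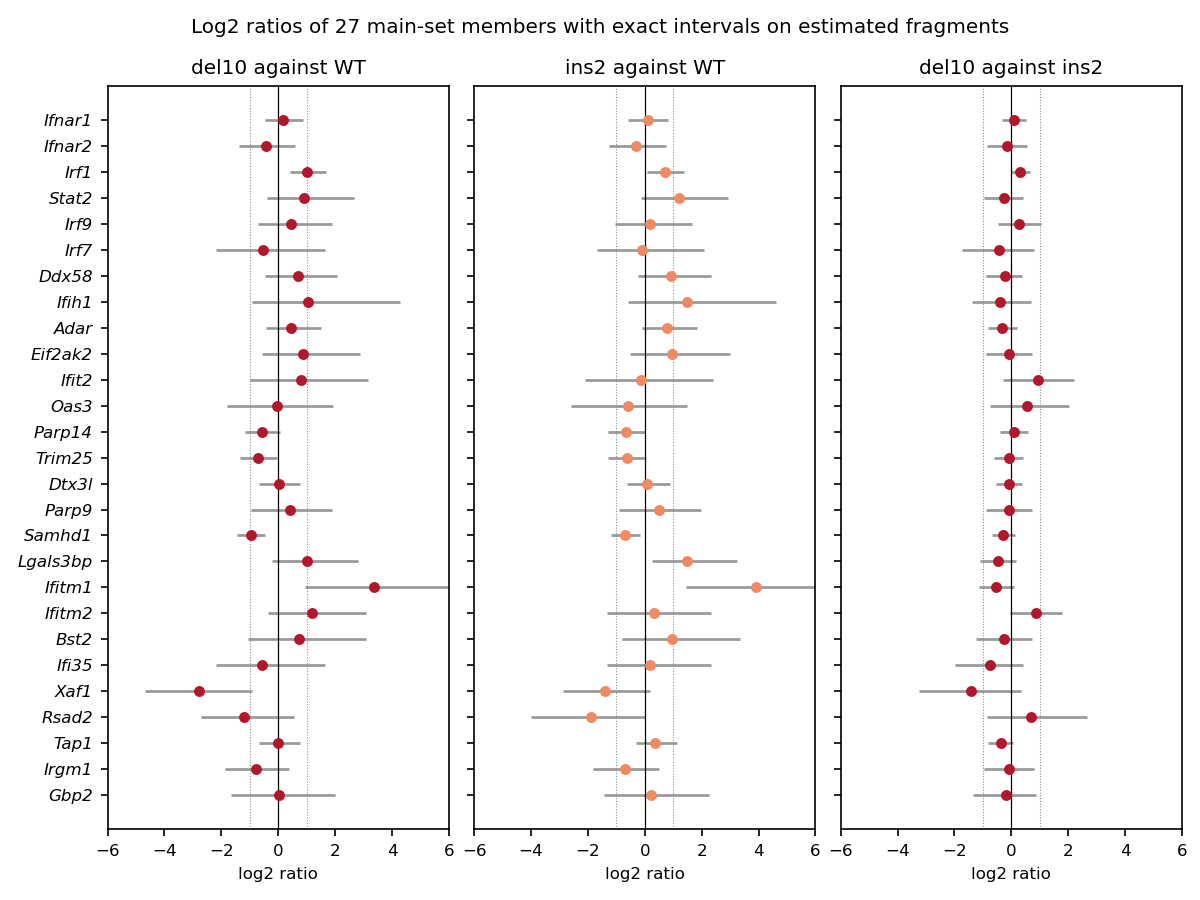
Log2 ratios of the 27 main-set genes for del10 against WT, ins2 against WT and del10 against ins2, with bars for the exact 95% interval on estimated fragments and dotted lines at 2-fold; the upper bars of Ifitm1 run past the axis. In the right panel every bar includes equal levels, and in the left panels Irf1 and Ifitm1 lie clear of it on one side and Samhd1 on the other.

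The 4 main-set effectors that act on RNA were within 2-fold of WT, and the other 7, outside the main set, are given after them. *Eif2ak2*, which encodes PKR, the kinase that stops translation on double-stranded RNA, had 501 normalized counts in del10, 532 in ins2 and 272 in WT, and its log2 ratio to WT was 0.88 for del10 and 0.97 for ins2. *Adar*, which edits adenosine in double-stranded RNA, had 1117 in del10, 1402 in ins2 and 817 in WT, and the log2 ratio was 0.45 for del10 and 0.78 for ins2. For both genes the knock-in values were above WT, within 2-fold. *Oas3*, which makes the oligoadenylate that activates RNase L, had 247 in del10, 168 in ins2 and 255 in WT. *Ifit2*, an RNA-binding inhibitor of translation, had 342 in del10, 179 in ins2 and 198 in WT. For these genes del10 was the higher of the knock-in libraries, while ins2 lay below WT.

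Of the *Oas*, *Oasl* and *Ifit* relatives outside the main set, 4 had a listed 0 or under 1 read in WT. *Oas1a* had 61.6 normalized counts in del10 and 80.7 in ins2, *Oas2* had 44.8 and 14.8, and *Oasl2* had 145 and 142, and all were listed at 0 in WT. *Oasl1*, the neighbour of *Oasl2* on chromosome 5, had 110 in del10, 64.0 in ins2 and 71.5 in WT. The WT value of *Oasl1* came to 1.07 fragments, so at this depth it could not be told apart from the listed 0 of *Oasl2*. *Ifit1* had 15.3 in del10, 22.6 in ins2 and 0.55 in WT, under 1 read. *Ifit3*, next to it on chromosome 19, was highest in WT, with 0.0509 in del10 (under 1 read), 21.5 in ins2 and 160 in WT. Against WT, *Ifit3* was at least 52.4-fold lower in del10, taken at the floor of 3 reads (at most 0.0237 on reads, at most 1.29 on fragments), and its ratio in ins2 was 0.134 (0.082 to 0.212 on reads, 0.0026 to 2.96 on fragments). Members of these families share sequence, and reads could be split between them by the counting.

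*Isg20* (chr7:78913765-78920396), which encodes an RNA exonuclease, was low in both knock-in libraries. It had 83.3 normalized counts in del10, 0.984 in ins2 and 478 in WT. The ins2 value was a single read, against 435 reads in WT. In del10 the ratio to WT was 0.174 (0.136 to 0.222 on reads, 0.0434 to 0.635 on fragments), and in ins2 it was 0.0021 (5.2e-05 to 0.0115 on reads, 0 to 0.214 on fragments). Both fragment intervals lay below equal levels, and the WT value corresponded to 7.12 fragments. *Isg20* missed the main set because its mean over the 3 libraries was 187.

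Genes of ISG15, ubiquitin and ADP-ribose conjugation were within 2-fold wherever they were deep enough. *Trim25*, a ubiquitin ligase that acts on RIG-I, had 1226 normalized counts in del10, 1298 in ins2 and 2001 in WT, and *Parp14*, an ADP-ribosyltransferase, had 1399, 1314 and 2083 in these libraries. Both were lower in del10 and in ins2 than in WT, with ratios for *Trim25* of 0.613 (fragment interval 0.393 to 0.961) and 0.649 (0.413 to 1.04), and for *Parp14* of 0.672 (0.442 to 1.05) and 0.631 (0.408 to 1.01). *Dtx3l*, a ubiquitin ligase that pairs with PARP9, had 1423 in del10, 1504 in ins2 and 1410 in WT, the smallest spread of any main-set member. *Parp9* had 509 in del10, 539 in ins2 and 379 in WT. *Dtx3l* and *Parp9* overlap by 558 bases on opposite strands, and the sources used here do not give whether the counting used the strand, so their shared bases may count for either gene.

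*Isg15*, the ubiquitin-like protein that gives the group its name, was at 91.7 normalized counts in del10, 9.84 in ins2 and a listed 0 in WT. *Usp18*, which removes ISG15 and blocks signalling at IFNAR2, had 39.7 in del10, 146 in ins2 and a listed 0 in WT. The knock-in libraries differed in opposite directions for this pair, by 9.32-fold upward in del10 for *Isg15* (4.84 to 20.1 on reads) and 0.272-fold for *Usp18* (0.187 to 0.390 on reads). On fragments both intervals included equal levels, narrowly, with a lower limit of 0.928 for *Isg15* and an interval of 0.0228 to 1.18 for *Usp18*.

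The interferon-induced transmembrane genes restrict virus entry at cell membranes and lie together on chromosome 7, and *Ifitm1* was the one that stood above WT on fragments in both knock-in libraries. *Ifitm1* (chr7:140967429-140969827) had 747 normalized counts in del10, 1080 in ins2 and 71.5 in WT, the largest ratio of any main-set member. It was 10.4-fold WT in del10 (8.10 to 13.7 on reads, 1.91 to 451 on fragments) and 15.1-fold in ins2 (11.8 to 19.7 and 2.75 to 645), and WT held about 1.07 fragments. *Ifitm2* (chr7:140954839-140955961) had 594 in del10, 323 in ins2 and 258 in WT, a ratio of 2.30 in del10 (1.97 to 2.69 on reads, 0.784 to 8.46 on fragments) and 1.25 in ins2 (1.05 to 1.48 and 0.398 to 5.07). *Ifitm3* (chr7:141009590-141010744) had 347 in del10, 154 in ins2 and a listed 0 in WT. Against a floor of 3 reads in WT, *Ifitm3* was at least 105-fold higher in del10 and at least 46.8-fold higher in ins2. Counted as fragments, the lower limit was 1.27-fold in del10 and 0.444-fold in ins2, so only the del10 value lay above WT beyond counting error. The order of the knock-in libraries differed within the family, since *Ifitm1* was the higher in ins2, and *Ifitm2* and *Ifitm3* in del10. The 3 genes are similar in sequence, and their reads may be split between them. *Ifitm1* and *Ifitm3* are expressed in hematopoietic progenitors without interferon as well, and the 7 LSK markers summed to 9187 in del10, 6501 in ins2 and 836 in WT. The 4 LSK markers in the main set were over 2-fold higher in both knock-in libraries, while *Ly6a* was at 0.358 of WT in del10 and 0.827 in ins2 and *Hoxa9* was listed at 0 in every library. The part of these cells in the *Ifitm* values was not tested.

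*Lgals3bp* (chr11:118392752-118401931), a secreted glycoprotein, had 717 normalized counts in del10, 1000 in ins2 and 355 in WT. That was 2.02-fold in del10 (1.77 to 2.31 on reads, 0.850 to 6.91 on fragments) and 2.82-fold in ins2 (2.48 to 3.201 and 1.18 to 9.52). *Bst2*, which encodes tetherin, a tether of budding virus and a marker of plasmacytoid dendritic cells, had 329 in del10, 393 in ins2 and 200 in WT. The list of 8 plasmacytoid dendritic cell markers, with *Bst2* among them, summed to 8106 in del10, 11113 in ins2 and 8399 in WT, and its part in the *Bst2* values was not tested. *Ifi35*, a cytoplasmic protein induced by interferon, had 193 in del10, 328 in ins2 and 290 in WT.

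In the main set, *Samhd1*, *Xaf1* and *Rsad2* had the lowest ratios to WT in del10. *Samhd1* (chr2:157097529-157135222), which depletes the deoxynucleotides that reverse transcription needs, had 1790 normalized counts in del10, 2176 in ins2 and 3494 in WT. The ratio stayed just inside 2-fold at 0.512 in del10 (0.483 to 0.543 on reads, 0.366 to 0.729 on fragments) and was 0.623 in ins2 (0.590 to 0.658 and 0.442 to 0.885). *Samhd1* was the member with most fragments in WT, 52.1, and its fragment intervals lay below equal levels in both knock-in libraries. *Xaf1* (chr11:72301629-72313733), which binds the apoptosis inhibitor XIAP, had 74.0 in del10, 199 in ins2 and 521 in WT. The ratio of *Xaf1* to WT was 0.142 in del10 (0.110 to 0.183 on reads, 0.0391 to 0.526 on fragments) and 0.381 in ins2 (0.322 to 0.451 and 0.137 to 1.12). *Rsad2* (chr12:26442743-26456452), which encodes viperin, an enzyme that makes a chain-terminating nucleotide, had 179 in del10, 109 in ins2 and 411 in WT. The ratio of *Rsad2* was 0.434 in del10 (0.360 to 0.520 on reads, 0.151 to 1.47 on fragments) and 0.266 in ins2 (0.213 to 0.329 and 0.0620 to 1.01). Of the 10 B-lineage markers, 8 were over 2-fold lower than WT in del10 and 8 in ins2, so that these genes were low in the libraries where B-lineage RNA was low, and the part of B-lineage cells in their values was not tested.

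*Cmpk2*, a mitochondrial nucleotide kinase, lies beside *Rsad2* on chromosome 12, on the opposite strand, and lay on the other side of WT. It had 333 normalized counts in del10, 168 in ins2 and 139 in WT, a ratio of 2.41 in del10 (1.95 to 2.98 on reads, 0.590 to 21.4 on fragments) and 1.21 in ins2 (0.959 to 1.54 and 0.246 to 11.9). WT held 2.07 fragments of *Cmpk2* and 6.13 of *Rsad2*. On fragments neither gene differed from WT beyond counting error.

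The remaining antiviral effectors were shallow. *Mx1*, a dynamin-like GTPase that traps viral nucleoproteins, had 114 normalized counts in del10, 77.0 in ins2 and a listed 0 in WT, while its neighbour *Mx2* had 36.7, 29.6 and 49.5. *Ifi44*, another interferon-induced gene, had 81.1 in del10, 69.1 in ins2 and 0.452 in WT, under 1 read. *Rtp4*, a transmembrane chaperone, had 86.6 in del10, 17.7 in ins2 and 80.3 in WT, with a ratio of 0.221 in ins2 (0.124 to 0.374 on reads, 0.0039 to 24.2 on fragments). *Ifi27l2a* was the only member listed at 0 in both knock-in libraries, with 112 in WT, where that came to 1.67 fragments. At the floor it was at least 36.7-fold lower in del10 and at least 38.0-fold lower in ins2 (at most 0.0341 and 0.033 on reads), with fragment limits of at most 1.29 in del10 and 1.64 in ins2.

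Antigen transport and the interferon-inducible GTPases were close to WT. *Tap1*, a subunit of the peptide transporter for class I antigen presentation, had 1416 normalized counts in del10, 1839 in ins2 and 1422 in WT. *Irgm1*, a GTPase of cell-autonomous immunity that also maintains hematopoietic stem cells in mice, had 422 in del10, 450 in ins2 and 729 in WT, and its log2 ratio to WT was -0.79 for del10 and -0.70 for ins2. *Gbp2*, a guanylate-binding protein, had 263 in del10, 302 in ins2 and 261 in WT. Outside the main set, *Gbp3* had 163 in del10, 102 in ins2 and 120 in WT, and *Igtp* had 163, 197 and 140 in these libraries. The 5 genes summed to 2426 in del10, 2889 in ins2 and 2671 in WT, and the ratios of these sums to WT were 0.908 in del10 (fragment interval 0.635 to 1.32) and 1.08 in ins2 (0.754 to 1.57).

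The 9 members of 47 listed at 0 in WT were *Isg15*, *Usp18*, *Dhx58*, *Zbp1*, *Oas1a*, *Oas2*, *Oasl2*, *Mx1* and *Ifitm3*, among them classical targets of type I interferon such as *Isg15*, *Mx1* and *Usp18*. A listed 0 in WT was common among all genes. Of the 14145 genes with reads in any library, 11037 had reads in WT, 13066 in del10 and 12796 in ins2. All 9 had reads in both knock-in libraries, between 39.7 and 347 normalized counts in del10 and between 9.84 and 154 in ins2. Against the floor of 3 reads in WT, *Zbp1* was at least 47.8-fold higher in del10 (lower limit 38.5 on reads, 0.545 on fragments) and 14.6-fold in ins2 (11.4 and 0.058). *Oasl2* was at least 43.8-fold higher in del10 (35.2 on reads, 0.48 on fragments) and 43.2-fold in ins2 (34.7 and 0.444), and *Mx1* at least 34.4-fold in del10 (27.7 and 0.35) and 23.3-fold in ins2 (18.5 and 0.203). *Isg15* was at least 27.8-fold higher in del10 (22.1 on reads, 0.286 on fragments) and 2.98-fold in ins2 (2.01 on reads), and *Usp18* at least 12.0-fold in del10 (9.34 and 0.0456) and 44.2-fold in ins2 (35.5 and 0.444). On reads these genes lay above WT, and on fragments their intervals included equal levels. *Isg15* in ins2, at 0.476 fragments, had no fragment interval. *Dhx58* was at least 26.6-fold higher in del10 (21.1 on reads, 0.223 on fragments) and 38.2-fold in ins2 (30.6 and 0.363). *Oas1a* was at least 18.7-fold higher in del10 (14.6 on reads, 0.16 on fragments) and 24.5-fold in ins2 (19.5 and 0.203), and *Oas2* at least 13.6-fold in del10 (10.6 and 0.1) and 4.48-fold in ins2 (3.21 and 0.0079). By the same floor *Ifi44* was at least 24.6-fold higher in del10 (19.6 on reads, 0.223 on fragments) and 20.9-fold in ins2 (16.5 and 0.127), and *Ifit1* at least 4.63-fold in del10 (3.32 and 0.0062) and 6.86-fold in ins2 (5.14 and 0.0079). Only *Ifitm3* in del10 exceeded WT on fragments, and for the other 8 a value of 0 in WT was not distinguishable from the knock-in values at this depth. With *Ifit1*, *Ifi44* and *Mx2* the 9 genes listed at 0 made up the 12 members under 1 fragment in WT, where 3 were so in del10 and 5 in ins2. By the same estimate 38 of the 47 genes reached 5 fragments in del10, 33 in ins2 and 18 in WT. Each fragment stood for 16 reads in del10, 21 in ins2 and 61 in WT, and the matching shares of all genes were not taken. These counts therefore describe the depth of the libraries and give no result about interferon genes.

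Between the knock-in libraries, which both lay apart from WT in lineage markers, few main-set interferon genes were past 2-fold, and few of all main-set genes were. None of the 27 main-set genes was over 2-fold higher in del10 than in ins2, where 3.59% of all main-set genes were, and 1 was over 2-fold lower, where 4.03% were. That gene was *Xaf1*, at 0.372 of its ins2 level (0.282 to 0.491 on reads, 0.106 to 1.27 on fragments). No fragment interval lay above equal levels, where 8.60% of all main-set genes did, and none lay below, where 7.80% did. The nearest to doing so were *Irf1*, 1.25-fold higher in del10 (0.996 to 1.56), and *Ifitm2*, 1.84-fold higher (0.960 to 3.42). The median log2 ratio was -0.14, against 0.01 for all main-set genes, and the summed normalized counts of the 47 genes had a ratio of 0.976 (fragment interval 0.904 to 1.05). Outside the main set 6 genes were over 2-fold higher in del10 than in ins2, *Isg20*, *Isg15*, *Rtp4*, *Zbp1*, *Oas2* and *Ifitm3*, and *Usp18* and *Ifit3* were over 2-fold lower, all with fragment intervals that included equal levels. With no filter beyond 1 read, 6 of the 47 genes were over 2-fold higher (12.8%), against 15.4% of all genes. In the same setting 3 of the 47 were over 2-fold lower (6.38%), against 13.96% of all genes. Neither share of the 47 genes exceeded that of all genes. *Rtp4* was 4.89-fold higher (2.91 to 8.64 on reads, 0.441 to 186 on fragments), *Zbp1* 3.27-fold (2.36 to 4.61 and 0.84 to 37.0), *Oas2* 3.04-fold (1.66 to 5.87 and 0.19 to 124) and *Ifitm3* 2.25-fold (1.86 to 2.73 and 0.969 to 6.59). *Isg20* had a ratio of 84.7 to its single read in ins2 (14.8 to 3393 on reads, at least 0.723 on fragments), and *Ifit3* was at least 7.05-fold lower at the floor (at most 0.189 on reads, at most 30.8 on fragments). The 10 T and NK cell markers summed to 6414 in del10 and 15446 in ins2 and differed between the same libraries by a ratio of 0.415.

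Of 118 other genes of interferon production, signalling and response, 111 were matched in the table and 73 were in the main set. In del10, 10 were over 2-fold higher than WT (13.7%, against 15.3% of all main-set genes), 9 over 2-fold lower (12.33% against 10.2%) and 54 within, with a median log2 ratio of -0.01 where that of all main-set genes was 0.04. In ins2, 15 were higher (20.5% against 15.7%), 5 lower (6.85% against 10.7%) and 53 within, with a median of 0.22 against 0.04. In del10 against ins2, 1 was higher (1.37% against 3.59%), 4 lower (5.48% against 4.03%) and 68 within, with a median of -0.17 against 0.01. The receptor kinases were within 2-fold of WT in both knock-in libraries. *Tyk2* had 1416 normalized counts in del10, 1538 in ins2 and 1465 in WT, and *Jak1* had 7134, 10463 and 5813 in these libraries.

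The main-set genes of this wider list with the 8 largest differences from WT on the log2 scale were 6 higher and 2 lower in both knock-in libraries. *Psmb9*, an immunoproteasome subunit, had 262 normalized counts in del10, 391 in ins2 and a listed 0 in WT, and *Psme1*, a proteasome activator subunit, had 1142, 1445 and 228. *Trim21*, an intracellular antibody receptor and ubiquitin ligase, had 403 in del10, 440 in ins2 and 39.8 in WT. *Gbp7*, a guanylate-binding protein gene, had 1182 in del10, 1251 in ins2 and 156 in WT. These, with *Aim2*, a sensor of cytosolic DNA (565, 586 and 130), and the GTPase gene *Ifi47* (483, 632 and 163), were all higher in both knock-in libraries. On the lower side, *Mavs*, the adaptor through which RIG-I and MDA5 signal, had 187 in del10, 296 in ins2 and 785 in WT. *Irf4*, a regulator of B-lineage and T-lineage cells, had 2641 in del10, 1665 in ins2 and 12008 in WT, beside the lower sums of B-lineage markers given above. Of the ligands, *Ifng*, which encodes interferon gamma and is made mainly by T and NK cells, was the only gene in the main set, with 387 in del10, 495 in ins2 and 142 in WT. Its WT value also rests on few fragments. The 10 T and NK cell markers summed to 6414 in del10, 15446 in ins2 and 6195 in WT, and their part in the *Ifng* values was not tested.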

How the data were processed

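RNA sequencing libraries of LSK cells from del10, ins2 and WT mice, 1 per genotype, were analysed. The authors aligned 75-bp reads to mm10 and deposited estimated counts per RefSeq gene, together with log2 values of counts after TMM scaling (trimmed mean of M-values). According to the submitters' processing notes, TopHat2 2.1.1, Bowtie2 2.2.3, Trimmomatic 0.32 and bcl2fastq 2.20 were used. Scaling factors were recovered from the deposited log2 values, which the recomputed values matched within 1.4e-06. Ratios used normalized counts, and log2 ratios a pseudocount of 1. Of 14145 genes with reads, the main set kept those whose mean was not under the median. Exact binomial 95% intervals were taken on reads and on reads divided by the commonest low count (searched from 5 to 150), and the floor was 3 reads. Members and lists were chosen with earlier results of these data known. Values were given for every member, intervals for receptors, transcription factors and genes past 2-fold (for values of 0, 1 limit), and of the wider list the 8 with the largest ratios to WT, *Jak1* and *Tyk2* were named (1 further gene under this rule is left out here). *Ifng* and genes outside the main set were named after their values were seen. The ratios and the intervals on reads were tested on simulated independent reads. The fragment estimate and the intervals on fragments were not tested in this way. Alternatives were other pseudocounts, filters and scalings and the mean. Python 3.11.15, NumPy 2.4.6, pandas 2.3.3, SciPy 1.17.1 and matplotlib 3.10.9 were used.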

Additional observations from a re-analysis of the deposited data

Results flagged for a closer look

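In 3 main-set genes the knock-in libraries lay on opposite sides of WT. The log2 ratio to WT was 0.79 for del10 and -0.14 for ins2 at *Ifit2*, -0.58 for del10 and 0.18 for ins2 at *Ifi35*, and -0.0057 for del10 and 0.37 for ins2 at *Tap1*. These differences were not tested, since each genotype had 1 library, and for each gene the fragment interval of del10 against ins2 included equal levels (0.808 to 4.56 for *Ifit2*, 0.255 to 1.33 for *Ifi35* and 0.567 to 1.05 for *Tap1*).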

How the results depend on the processing

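Of 75 recomputed values, 57 were labelled the same as the reported one and 18 moved, and no median changed sign. A count kept the label within a set fold of the reported count. A median kept it inside an interval over the member genes, -0.55 to 0.79 for del10 against WT. That interval is wide, so the label says little about the medians. Without the filter the median was 0.45 in del10 and 0.32 in ins2 against WT, where the reported ones were 0.18. The medians of all genes without the filter were 0.15 in del10 and 0.10 in ins2, where those of the main set were 0.04. With all 47 genes and no filter beyond 1 read, 17 were over 2-fold higher and 5 lower in del10 than in WT, 15 higher and 6 lower in ins2 than in WT, and 6 higher and 3 lower in del10 than in ins2. These counts take in the 20 genes outside the main set. Relative to WT, the del10 counts were 36.2% and 10.6% of the 47, beside 30.2% and 15.5% of all genes without the filter. The ins2 counts were 31.9% and 12.8% of the 47, beside 28.7% and 15.7% of all genes. With the filter, the shares of all genes were 15.3% and 10.2% for del10, and 15.7% and 10.7% for ins2. Dropping the filter thus raised the shares of all genes too. The same counts of 17, 5, 15, 6, 6 and 3 were found with values under the floor set to 3 reads, an alternative chosen after seeing the data. The shares of all genes were then 28.3%, 14.9%, 27.6%, 15.1%, 14.2% and 13.3%, in the same order. With scaling by total reads without *Rn45s*, 3 genes in place of 5 were over 2-fold higher in del10 than in WT and 3 in place of 2 were lower. With a minimum mean of 610, also chosen after seeing the data, 12 genes were kept. Of these, 3 were higher in del10 than in WT (25%, against 10.1% of all genes kept) and 0 lower (against 7.27%). In ins2 against WT, 2 were higher (16.7% against 10.1%) and 0 lower (against 8.28%). In del10 against ins2, 0 were lower (against 1.33%). No library could be left out, since each genotype had 1. No paired analysis was possible because each genotype had 1 library. The WT library, with the fewest estimated fragments, limits both comparisons that use it.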
